A study of Mus musculus with 45 samples.

Results

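Total RNA of NIH-3T3 cells, an established line of mouse embryonic fibroblasts, was compared between 60 min and 30 min after the cells had received fresh medium. The comparison took the 3 arrays whose titles carry 2F, 1h mock, 200 µM 4sU and tc-RNA, and the 9 arrays of tc-RNA at 0 to 30 min with 500 µM 4sU. These are 12 of the 45 arrays of the series, chosen by title. The name tc-RNA stands for total cellular RNA, and 4sU is 4-thiouridine, a nucleoside that cells build into RNA as it is made. The titles explain neither 2F nor mock, and mock does not stand in the titles of the 30 min arrays.

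All the cells were at passage 5 to 15. Plating at 40% density took place 24 h ahead of the experiment, in which they had reached about 80%, and they were kept at 37°C and 5% CO2 in DMEM with 5% NCS and P/S. The groups set beside the comparison, with 3 arrays each where no number is given, were total RNA taken before actinomycin D (called untreated cells here), total RNA of another 60 min experiment without the 2F label at 200 µM 4sU (the first 60 min experiment), and total RNA of cells given actinomycin D, a blocker of transcription, at 5 µg/ml for 1 h or for 2 h. Newly transcribed RNA, the fraction that carried 4sU, came from the 2F experiment at 60 min, from 30 min (9 arrays) and from 15 min at 500 µM 4sU. Labelling time, 4sU dose and experiment change together between the groups at 30 min and 60 min, so their parts in a difference cannot be told apart. Labels do not say whether the replicates are separate cultures, and the p-values then measure only the spread between these arrays.

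Fresh medium gives fibroblasts a pulse of serum growth factors. MAP kinase signalling then switches on immediate-early genes without new protein synthesis, among them Fos, Egr1 and Jun, which encode transcription factors. Their transcripts are short-lived and soon fade, while a second wave follows: cytokines, feedback inhibitors and further transcription factors, made partly under the control of the first wave. Total RNA lags behind transcription because it also holds the RNA made before the change of medium.

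The 9 arrays at 30 min were not alike. They fell into 3 sets of 3 by replicate number (1, 4 and 7, then 2, 5 and 8, then 3, 6 and 9). Log2 differences between 2 arrays of one set had an SD over probe sets of 0.184 to 0.303, against 0.499 to 0.795 between sets, and all 9 arrays correlated best with their own set. The labels do not mention the sets. The 3 arrays at 60 min differed from each other by an SD of 0.159 to 0.170. Ratios of 3' to 5' probe sets, a sign of RNA degradation, moved with the sets: the log2 difference for Gapdh was -0.30 to -0.26 at 60 min, -0.15 to -0.10 in the first set, 0.42 to 0.62 in the second and 0.01 to 0.05 in the third. For actin it was 0.68 to 0.74 at 60 min and 0.52 to 0.58, 1.29 to 1.5 and 0.54 to 0.70 in the sets. Replicates 1, 2 and 3 of the first 60 min experiment had -0.23, 0.36 and -0.29 for Gapdh and 0.77, 3.08 and 1.29 for actin. The part of these ratios in the results was not tested. Named changes are therefore given with the adjusted p from the main fit on 12 arrays. Where a call was lost, that from a fit on the 3 set means (3 against 3) is added. That fit still counts the 3 arrays at 60 min as separate replicates, although they differed by less than the arrays within a set. The arrays of the first 60 min experiment stood further apart, by an SD of 0.534 to 1.02; against 30 min, 382 of 15355 probe sets were called higher there (2.49%) and 742 lower (4.83%). Of the fibroblast markers, 15 of 15 had a mean level of log2 5 or more, with a summed intensity of 80953 to 94962 at 30 min and 80902 to 84452 at 60 min. The epithelial (5), leukocyte (5), and endothelial and muscle (4) markers measured here all had a mean below it, and 1 epithelial marker passed it on at least 1 array.

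Between 30 min and 60 min, 170 probe sets were called higher and 47 lower of 15440 tested with limma, which is 1.10% and 0.304%. A probe set was called where it changed 2-fold or more and its p, adjusted by Benjamini-Hochberg, was below 0.05. These probe sets stood for 139 genes that were higher and 25 that were lower, and 15 and 21 of the calls had no single gene symbol. With 1 probe set per gene (the one with the highest mean), 32 of 8399 genes were higher and 11 lower, 0.381% and 0.131%. All 217 calls had the same direction against each of the 3 sets of 30 min arrays. The sets are parts of the arrays that gave the calls, so the selection nearly fixed this. The arrays at 60 min all lay outside the range at 30 min for 168 of the 170 and 46 of the 47, against 9.21% and 4.58% of all probe sets tested. With set means, 77 probe sets were higher and 16 lower (0.495% and 0.103%), and 67 and 16 of these were among the main calls. With the set as a random block (correlation 0.807) and the 3 arrays at 60 min as 1 block, limma called 0 in either direction. The smallest adjusted p was 0.134 there, and 356 higher and 126 lower probe sets had an unadjusted p below 0.05. Quantile normalization gave 123 higher and 75 lower. Without the first, the second or the third array at 60 min, 64, 61 and 84 probe sets were higher and 24, 21 and 42 lower.

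Among genes measured by their brightest probe set at log2 7 or more at 60 min, the largest increase was that of Lif. Lif, which encodes a cytokine of the interleukin-6 family, rose 5.05-fold. Ccl2 and Ccl7, chemokines that attract monocytes, Ereg, a ligand of the EGF receptor, and Snai1, Klf10, Id1, Id2 and Id3, all regulators of transcription, rose 2.57- to 4.22-fold. Slc30a1, a zinc exporter, and Net1, an exchange factor, rose within the same range, and probe sets that were not the brightest of their gene rose by up to 2.61 on the log2 scale (Mbtps1, described with the other increases). Fos was the early gene called lower, and it was still above untreated cells at 60 min.

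Lif measured log2 7.71, 7.59 and 7.78 on the 3 arrays at 60 min. At 30 min it lay between 4.78 and 5.83 (median 5.34), and in untreated cells at 3.70, 3.00 and 2.66. The 3 groups did not overlap, and each time point stood above the one before. From 30 min to 60 min the change was 2.34 ± 0.19 (SE, limma on 3 against 9 arrays, adjusted p = 7.6e-05). It was 8.12, 8.17 and 7.75 in the first 60 min experiment, above every array at 30 min. In newly transcribed RNA Lif rose by 1.5 ± 0.44 (limma adjusted p = 0.020).

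Fos measured 5.70, 5.90 and 5.80 in untreated cells, 10.22 to 11.04 (median 10.78) at 30 min, and 9.19, 9.16 and 9.57 at 60 min. It was thus high on all 9 arrays at 30 min and lower on all 3 at 60 min, with no overlap. Fos fell by 1.41 ± 0.16 on the log2 scale (limma, 3 against 9 arrays, adjusted p = 0.00048), a 2.67-fold decrease, and stayed 3.51 above untreated cells. The first 60 min experiment gave 9.41, 9.32 and 9.50. Among the newly transcribed RNA, Fos was at 13.24, 13.22 and 12.84 at 15 min, 13.00 to 13.70 at 30 min, and 11.09, 11.20 and 11.98 at 60 min, lower by 2.04 ± 0.19 (limma adjusted p = 1.8e-05) than at 30 min.

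Promoters of Fos, Lif and Id3 are shown because these genes stand for the fading early transcripts, the largest increase on a brightest probe set and the Id family. Each is the 250 bases upstream of the RefSeq start site on GRCm38.p6, on the strand of the gene: Fos at chr12:85473640-85473889, Lif at chr11:4257318-4257567 and Id3 at chr4:136143572-136143821, all on the plus strand. Capitals mark matches on either strand to TGACTCA or TGAGTCA (an AP-1 site, bound by Fos and Jun proteins), TGACG (the half-site of the CRE, bound by CREB and ATF proteins), the TATA box as TATAAA, and the NF-kappaB site. The AP-1 and CRE patterns do not contain each other.
Fos: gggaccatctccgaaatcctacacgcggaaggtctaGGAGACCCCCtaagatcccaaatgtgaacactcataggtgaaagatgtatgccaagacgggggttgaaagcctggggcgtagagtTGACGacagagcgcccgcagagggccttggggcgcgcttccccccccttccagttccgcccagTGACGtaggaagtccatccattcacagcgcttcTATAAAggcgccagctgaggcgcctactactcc
Lif: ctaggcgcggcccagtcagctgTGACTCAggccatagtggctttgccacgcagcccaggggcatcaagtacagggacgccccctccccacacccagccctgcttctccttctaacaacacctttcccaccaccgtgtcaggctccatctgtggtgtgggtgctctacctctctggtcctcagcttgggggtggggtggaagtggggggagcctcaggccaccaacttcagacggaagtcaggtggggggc
Id3: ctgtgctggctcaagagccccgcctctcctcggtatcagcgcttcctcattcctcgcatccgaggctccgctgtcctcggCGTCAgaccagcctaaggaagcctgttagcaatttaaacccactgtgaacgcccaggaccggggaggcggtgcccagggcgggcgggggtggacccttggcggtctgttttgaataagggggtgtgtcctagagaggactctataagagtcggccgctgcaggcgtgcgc

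In these stretches Fos held 2 CRE half-sites, 1 NF-kappaB match and a TATA box that began 33 bases before the start, Lif held 1 AP-1 site, and Id3 held 1 CRE half-site. Over the RefSeq windows (250 bases upstream and 50 downstream), 33 of the 51 genes called higher and above untreated cells at 60 min had 44 windows. An AP-1 site stood in 6 of them (13.6%), against 5.20% of all 32851 windows. The CRE half-site stood in 15 (34.1%), against 20.8%, and the TATA box in 8 (18.2%), against 13.6%. For other genes called higher (78 of 88 matched, 102 windows) the shares were 2.94% for AP-1, 44.1% for the CRE half-site and 18.6% for the ETS site CCGGAAG, which 8.86% of all windows held. Genes called lower (20 of 25 matched, 25 windows) had AP-1 in 8.00% and the NF-kappaB site in 16.0%, against 4.51% of all. They had the CRE half-site in 36%, the ETS site in 8% and the TATA box in 12%. The CRE half-site thus stood above its share of all windows in all 3 groups. In the first group the ETS site was in 4.55% and the NF-kappaB site in 6.82%. The other genes called higher had the NF-kappaB site in 2.94% and the TATA box in 5.88%. The E-box CACGTG was in 6.82%, 9.80% and 0% of these 3 groups' windows and in 7.15% of all, and the CArG box, bound by SRF, was in 0 windows of the 3 groups and in 1.63% of all. These are descriptions of letters in the windows, with no test.

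**Figure D1:**
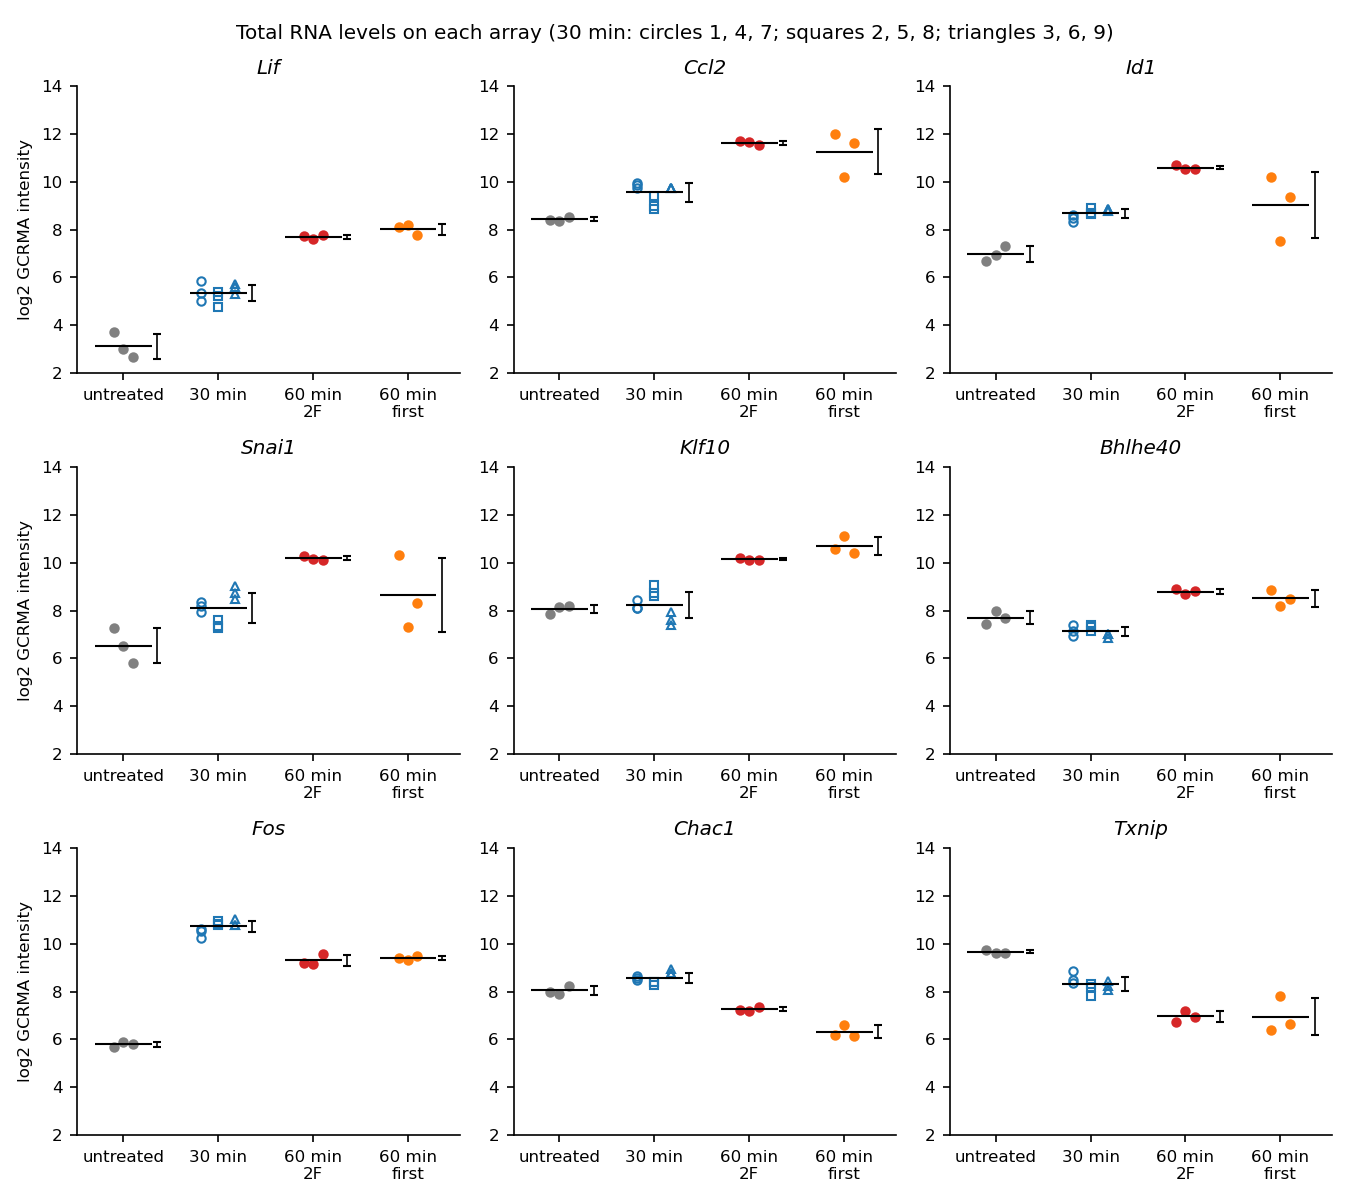
Level (log2 GCRMA intensity) of 9 genes on each array of total RNA: untreated cells, 30 min, 60 min of the 2F experiment and 60 min of the first experiment. Lines are means, bars are SD over arrays, and open symbols of 3 shapes mark the 3 sets at 30 min; Lif stood at 4.78 to 5.83 at 30 min and 7.59 to 7.78 at 60 min, while Fos went from 10.22 to 11.04 down to 9.16 to 9.57.

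Cytokines and chemokines were the list with the highest median change, 1.01 over 13 genes tested, and 4 of the 13 were called higher and none lower (0.381% and 0.131% of all genes tested, whose median was 0.01). Ccl2 was at 11.68, 11.67 and 11.54 at 60 min and at 8.84 to 9.95 (median 9.73) at 30 min. That is an increase of 2.08 ± 0.22 (limma adjusted p = 0.00034, n = 3 and 9), with no overlap; the lowest arrays at 30 min were those of the second set. Ccl7 rose by 1.53 ± 0.22 (limma adjusted p = 0.0018). It changed by 0.10 in newly transcribed RNA (limma adjusted p = 0.85), and by -0.20 in the first 60 min experiment. Clcf1, another cytokine of the interleukin-6 family, rose by 1.07 ± 0.29 (adjusted p = 0.046 by limma, 0.15 with set means). Cxcl1, a neutrophil chemokine, missed the call at 1.01 ± 0.28 (limma adjusted p = 0.054). Il6 ranged from 3.96 to 8.08 over the 30 min arrays and from 7.53 to 7.78 at 60 min, so that the groups overlapped.

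Among growth factor ligands, 1 of 16 was called higher and none lower, with a median of 0.14. This was Ereg, at 11.17, 11.06 and 11.04 against 9.23 to 9.90 (median 9.41) at 30 min, a change of 1.60 ± 0.14 (limma adjusted p = 0.00014). It was 3.35 above untreated cells at 60 min, where it had been 1.74 above them at 30 min. Hbegf, another EGF receptor ligand, had 10.40, 10.07 and 10.39 on its main probe set against 9.09 to 9.58, a change of 0.998 just short of the 2-fold limit. A second probe set of the gene was called at 1.43 ± 0.13 (adjusted p = 0.00014 by limma). Of the delayed serum genes for secreted and surface proteins, 1 of 27 was called: Plaur, the urokinase receptor, with 1.05 ± 0.15 (limma adjusted p = 0.0018; 0.060 with set means; 0.97 without the first 60 min array). Tnc, which encodes the matrix protein tenascin C, was called by 1 probe set that is not its brightest, at 2.44 ± 0.26 (limma adjusted p = 0.00034).

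TGF-beta and BMP targets held 6 increases among 17 genes tested, 4 of them with set means, and a median of 0.31. Id1, Id2 and Id3 encode proteins that bind helix-loop-helix factors and keep them from DNA. Id1 was at 10.68, 10.55 and 10.54 at 60 min, against 8.30 to 8.90 (median 8.67) at 30 min and 6.68, 6.92 and 7.33 in untreated cells. Its rise of 1.91 ± 0.12 had the lowest adjusted p of the named genes (limma, 2.3e-05), and the 3 sets at 30 min lay close together. On the arrays of the first 60 min experiment Id1 spread from 7.53 to 10.20, and it changed by 0.35 from 30 min there.

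Id3 rose by 1.77 ± 0.23 (limma adjusted p = 0.0011), from 8.25 to 9.37 (median 9.04) to 10.79, 10.70 and 10.61. In Id2 the change was 1.36 ± 0.25 (limma adjusted p = 0.0083), but 0.078 with set means and 0.055 and 0.067 without the first or the second 60 min array. Snai1, a repressor that acts in epithelial-mesenchymal transition, was at 10.27, 10.16 and 10.11 against 7.27 to 9.02 (median 8.18), with the second set lowest and the third highest. The rise was 2.07 ± 0.34 (adjusted p = 0.0041 by limma, 0.054 with set means), and in newly transcribed RNA it was 3.19 ± 0.54 (limma adjusted p = 0.00075). In the first 60 min experiment Snai1 changed by only 0.54 ± 0.52 from 30 min and was not called (limma adjusted p = 0.45). Smad7, an inhibitor of TGF-beta receptors, rose by 1.03 ± 0.11 (limma adjusted p = 0.00063).

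Klf10, a zinc-finger factor induced by TGF-beta and by serum, measured 10.21, 10.12 and 10.12 at 60 min. It had 7.39 to 9.06 (median 8.12) at 30 min, with the second set highest and the third lowest. Untreated cells had 7.87, 8.16 and 8.17, so that Klf10 was called above them at 60 min (2.08, limma adjusted p = 0.0020) and was only 0.15 from them at 30 min (limma adjusted p = 0.81). The change from 30 min was 1.93 ± 0.30 (limma adjusted p = 0.0030; 0.046 with set means).

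Other regulators of transcription were called too. Bhlhe40, a repressor tied to the circadian clock, was the 1 clock gene of 13 that was called, with 8.89, 8.67 and 8.81 against 6.87 to 7.40 (median 7.13), or 1.66 ± 0.13 (limma adjusted p = 5.4e-05). Its level at 30 min was 0.57 below untreated cells. Dlx2, a homeobox factor, rose by 1.90 ± 0.23 (limma adjusted p = 0.00077). Gadd45b, a stress-induced activator of MAP kinase kinase kinases, rose by 1.42 ± 0.11 (limma adjusted p = 5.4e-05), from 7.76 to 8.27 at 30 min to 9.49, 9.27 and 9.33. Untreated cells had a mean of 8.43 for it, so it lay 0.50 below them at 30 min and 0.93 above them at 60 min. Arrdc3, an arrestin-like protein, rose by 1.13 ± 0.14 (limma adjusted p = 0.00090); with Gadd45b it made up the 2 increases among 28 growth-arrest genes that serum lowers. Tiparp, an ADP-ribosyltransferase induced through the aryl hydrocarbon receptor, rose by 1.33 ± 0.20 (adjusted p = 0.0026 by limma, 0.053 with set means), while its other 2 probe sets, at 0.82 and 0.96, were not called.

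Slc30a1 and Net1 were called on uneven arrays. Slc30a1 ranged from 4.67 to 7.72 (median 5.70) at 30 min and stood at 8.13, 8.05 and 7.91 at 60 min. Its adjusted p was 0.048 by limma (a change of 2.08 ± 0.55), 0.13 with set means, and 0.053 to 0.20 when any 1 of 9 of the 12 arrays was left out. Net1 changed by 1.75 ± 0.39 (limma adjusted p = 0.022), with 0.052 with set means and 0.088 to 0.12 without any 1 of the 60 min arrays. Net1 did not differ by call from untreated cells at 60 min (1.55, limma adjusted p = 0.059).

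Feedback regulators of MAP kinase signalling gave 1 increase among 15 genes, with a median of 0.26. Spry4, a Sprouty inhibitor of receptor signalling, was at 6.34, 6.31 and 5.99 against 4.58 to 5.46 (median 5.15), or 1.16 ± 0.19 (limma adjusted p = 0.0051; 0.052 without the second 60 min array). Trib1, a pseudokinase, missed the 2-fold limit at 0.92 ± 0.13 (limma adjusted p = 0.0020). Dusp1, the phosphatase that ends MAP kinase signals early, had 9.25, 9.25 and 9.40 against 9.79 to 10.54 (median 10.14), and -0.87 ± 0.13 likewise missed it (limma adjusted p = 0.0026). Dusp1 was 0.97 above untreated cells at 30 min and 0.09 at 60 min; neither met the call. Nfkbia, the inhibitor that NF-kappaB itself induces, had 0.95 ± 0.13 on its brightest probe set and a called 1.25 ± 0.12 on another, and Bcl10 was called by a probe set that is not its brightest (1.34 ± 0.25, adjusted p = 0.0098 by limma, 0.080 with set means); 0 of 12 NF-kappaB factors and inhibitors were called on their brightest probe set, at a median of 0.29.

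**Figure D2:**
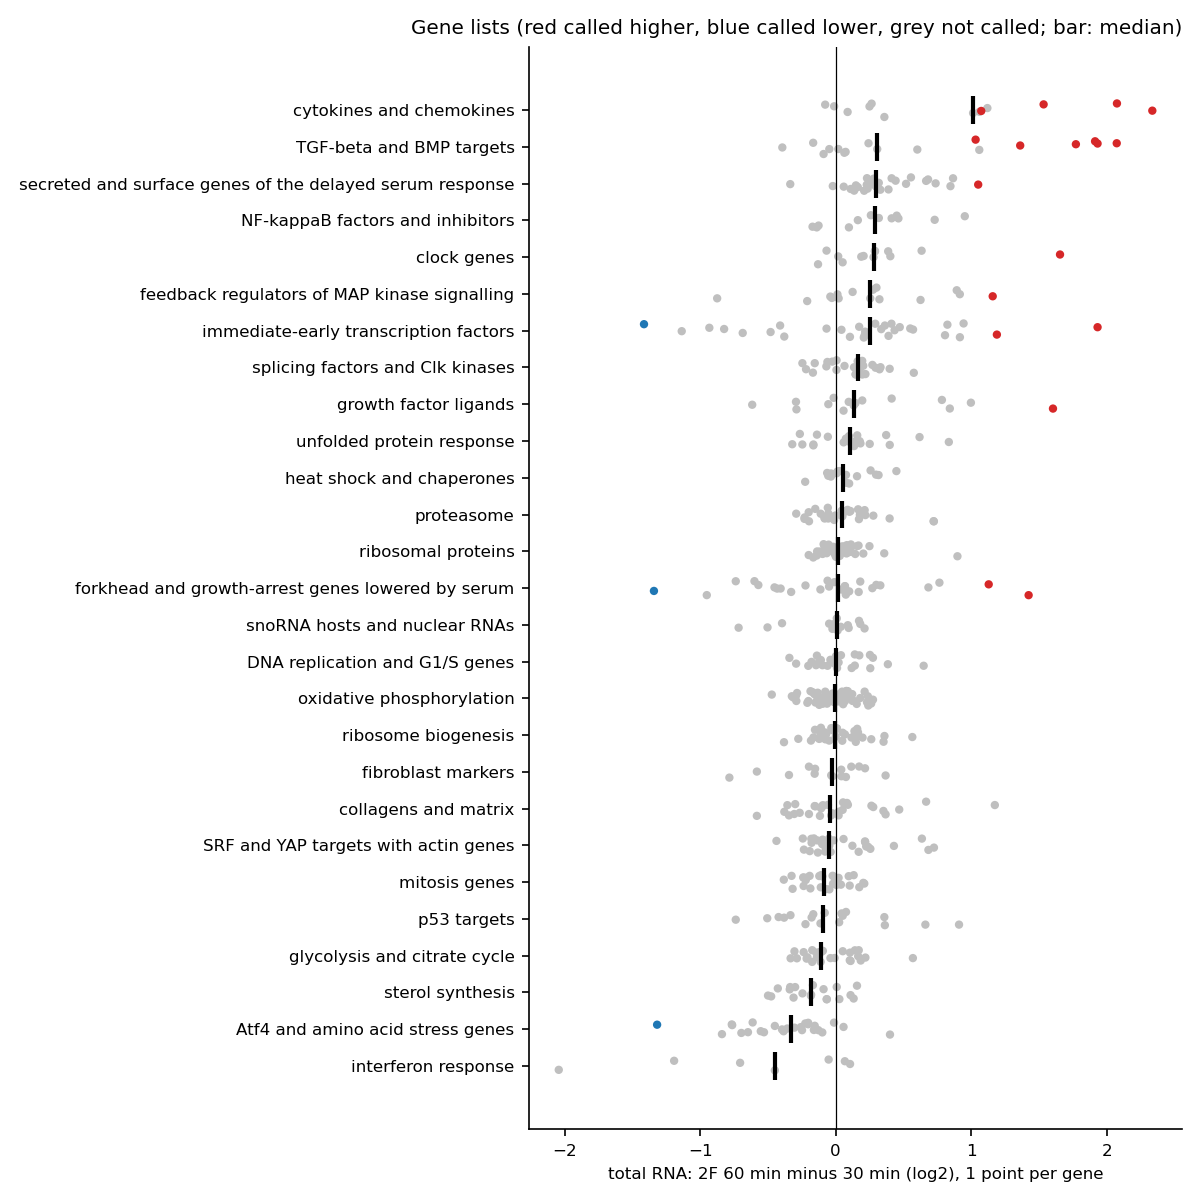
Log2 change in total RNA from 30 min to 60 min of the 2F experiment for the members of 27 gene lists, 1 point per gene (brightest probe set), ordered by median; red and blue points were called higher and lower, grey points were not called, and bars are medians. Cytokines and chemokines (median 1.01) and TGF-beta and BMP targets (0.31, 6 of 17 called higher) stand at the top, and Atf4 genes (-0.33) and interferon genes (-0.45) at the bottom.

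Of 30 immediate-early genes for transcription factors and related proteins, 2 were called higher, 1 lower and 27 neither, with a median change of 0.25. The list had a median of 1.47 above untreated cells at 30 min and 1.78 at 60 min, and 15 and 23 of its genes were called above them. Of all 8399 genes tested, 59 (0.702%) were called above untreated cells at 30 min and 126 at 60 min. The increases were Klf10 and Csrnp1, a nuclear factor induced by Axin, which went from 5.85 to 6.76 to 7.44, 7.35 and 7.66 (1.19 ± 0.19, adjusted p = 0.0034 by limma, 0.058 with set means). The decrease was Fos. The genes with the levels described next were chosen after their values were seen, apart from Ier2 and Myc.

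Egr1 had 12.84 to 13.07 (median 12.92) at 30 min and 12.26, 12.19 and 12.35 at 60 min, without overlap. Its change of -0.69 ± 0.08 had a limma adjusted p of 0.00065 (0.060 with set means) and was under 2-fold. Egr3, of the same family, moved the other way, from 10.20 to 11.24 to 11.66, 11.69 and 11.59 (0.94 ± 0.19, limma adjusted p = 0.013; 0.090 with set means), also under 2-fold. Egr2 was at 10.27, 10.47 and 10.51, inside the 9.37 to 11.18 of the 30 min arrays, with a change of 0.04 ± 0.40.

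Ier2 had a change of -1.14 ± 0.35 and was not called (limma adjusted p = 0.082), since the 30 min arrays spread from 9.95 to 11.75 (median 11.42) around the 9.97, 9.88 and 10.13 at 60 min. In newly transcribed RNA Ier2 fell by 1.80 ± 0.22 on the log2 scale (limma adjusted p = 9.5e-05). Zfp36, the decay factor tristetraprolin, had a like pattern: 8.71, 8.83 and 9.10 against 9.18 to 10.77 in total RNA (-0.93 ± 0.31, limma adjusted p = 0.10) and a called change of -1.99 ± 0.23 in newly transcribed RNA (limma adjusted p = 6.8e-05). Jun changed by -0.38 ± 0.17, Klf2 by -0.48 ± 0.24 and Atf3 by 0.34 ± 0.19, none of them called. Junb changed by 0.81 ± 0.32 and Nr4a1 by 0.57 ± 0.17, with limma adjusted p of 0.17 and 0.074. Npas4 changed by 1.79 ± 0.63 (limma adjusted p = 0.12), with a range of 3.54 to 6.57 at 30 min. Myc, at 10.30, 10.32 and 10.37 against 9.22 to 10.21, had a change of 0.55 ± 0.21 (limma adjusted p = 0.15).

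**Figure D3:**
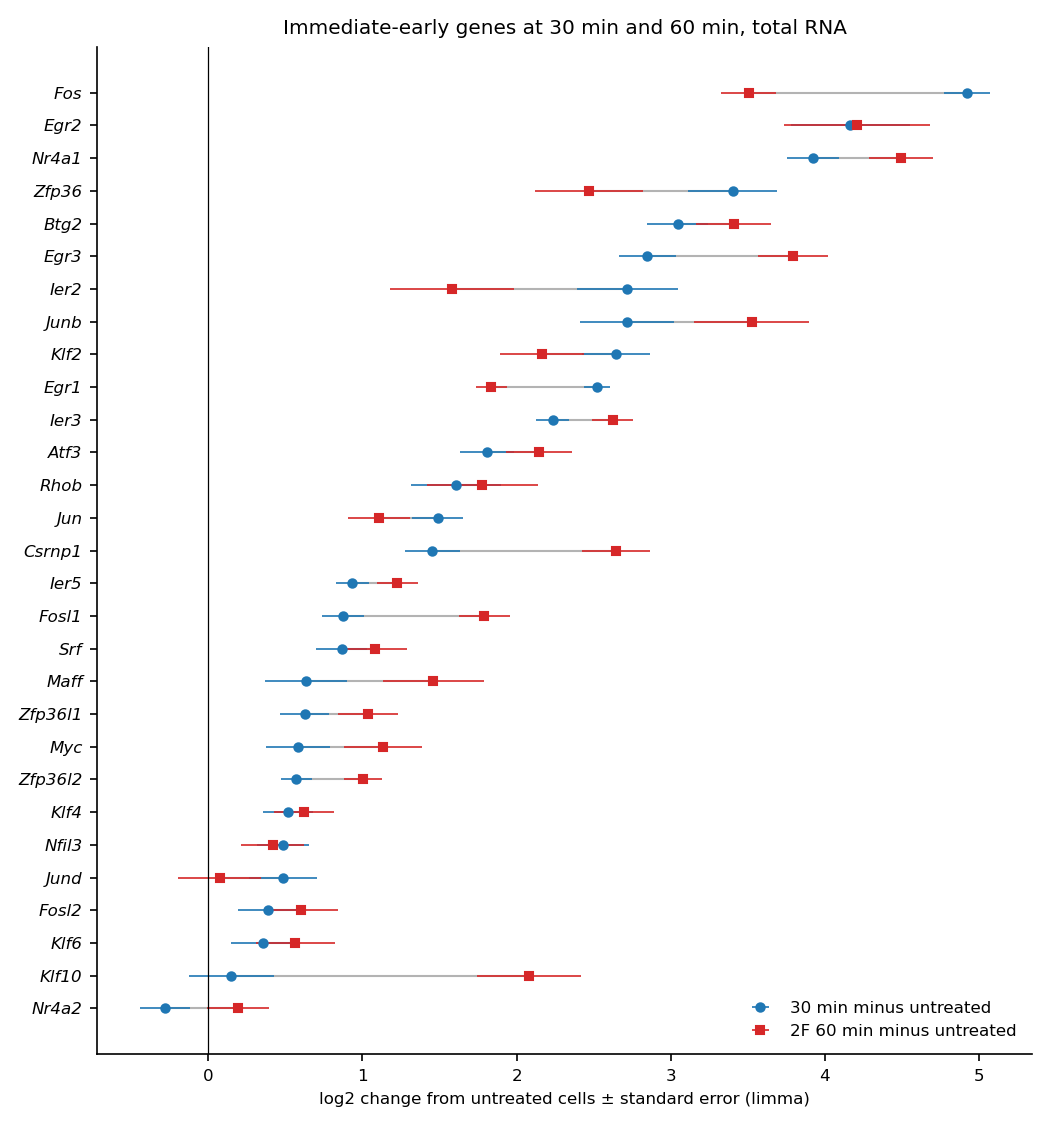
Log2 change from untreated cells in total RNA at 30 min (blue circles) and at 60 min of the 2F experiment (red squares), with standard errors from limma, for the 29 immediate-early genes that were tested in both, ordered by the change at 30 min. Fos moves from 4.92 down to 3.51, Egr1 from 2.52 to 1.84, Klf10 from 0.15 up to 2.08, and Csrnp1 from 1.45 to 2.64.

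Over all genes with 1 probe set each, 59 of 8399 were called above untreated cells at 30 min (0.702%). Both comparisons use the 30 min arrays, so their values are not independent: an array set that reads high at 30 min raises the first and lowers the second. By 60 min, 48 of the 59 were still called above untreated cells. Between 30 min and 60 min 11 of the 59 were called higher, 1 lower (Fos) and 47 neither, where 0.381% of all 8399 genes were called higher and 0.131% lower. A positive change was found in 42 of the 59, and their median was 0.39, against 0.01 for all genes. At an adjusted p below 0.05 whatever the fold, 16 of the 59 had a positive and 4 a negative change. Of all 15440 probe sets tested, 605 and 277 did. In newly transcribed RNA, on other arrays, 8 of the 57 tested were called higher, 4 lower, and the median was 0.00, with 28 above 0. Of all probe sets in that fraction, 3.89% were called higher and 7.09% lower. The median over all genes was 0.24 there, and 66.9% of probe sets tested in both fractions had a positive change.

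Fading early transcripts, defined as called lower from 30 min to 60 min and called above untreated cells at 30 min, were 5 of the 47 lower probe sets. They were Fos and 4 probe sets without a single gene symbol: 1442014_at, 1442710_at, 1445256_at and 1446339_at. Fos and 1442014_at were still called above untreated cells at 60 min, and the others were not. Of all probe sets tested, 105 of 15453 (0.679%) were called above untreated cells at 30 min. Both calls in the definition use the 30 min arrays, so they are not independent.

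The probe set 1445256_at was at 3.34, 2.86 and 2.34 in untreated cells, 6.12 to 8.93 (median 8.47) at 30 min and 4.99, 4.65 and 5.16 at 60 min. Its decrease was -2.84 ± 0.62 (adjusted p = 0.020 by limma, 0.10 with set means), the largest of any call. For 1446339_at untreated cells had 4.53, 3.55 and 4.63, the 30 min arrays 5.49 to 7.56 (median 6.21) and the 60 min arrays 3.82, 4.19 and 4.63, so that the last group lay in the range of the first or beside it; the change was -2.06 ± 0.36 (adjusted p = 0.0066 by limma, 0.056 with set means). The probe set 1442710_at went from 9.20 to 10.19 (median 9.69) to 7.96, 7.93 and 8.28, with 7.33, 7.24 and 7.25 in untreated cells (limma adjusted p = 0.00083). Last, 1442014_at went from 7.88 to 9.22 (median 8.35) to 7.15, 6.70 and 6.83, with untreated cells at 5.49, 5.83 and 5.67 (limma adjusted p = 0.0036). At 60 min 1445256_at and 1446339_at averaged below log2 5, the limit for testing, and they passed it only through the 30 min arrays. With values below log2 5 set to 5, 24 probe sets were called lower in place of 47.

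All 5 were called lower in newly transcribed RNA too, where 7.09% of probe sets were, with a median of -2.55 against 0.20 for all probe sets tested in both fractions. In that fraction 1445256_at was at 9.62, 9.82 and 11.16 at 15 min, 7.31 to 11.03 (median 8.57) at 30 min and 4.09, 3.89 and 3.31 at 60 min. For 1442710_at the same groups had 13.85, 13.74 and 13.52, then 11.28 to 13.07 (median 12.66), then 10.24, 10.20 and 10.01. In the first 60 min experiment the 5 stood 1.66 above untreated cells at the median, against -0.09 for all probe sets tested. From 30 min they lay -1.39 away at the median, against -0.07 for all. The arrays of that experiment were not used to select the 5. The untreated and 30 min arrays were, so these differences are not independent of the selection.

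The other 42 lower probe sets were not above untreated cells at 30 min: 4 were below them at 30 min, 16 were below them at 60 min only (0.602% of all probe sets tested were below at 60 min) and 22 differed by call at neither time. The calls against untreated cells use arrays of the main comparison, so they are not independent of it. Txnip, an inhibitor of thioredoxin and of glucose uptake, was below untreated cells at both times. It had 9.73, 9.63 and 9.61 in untreated cells, 7.81 to 8.85 (median 8.31) at 30 min and 6.74, 7.20 and 6.93 at 60 min. It fell by 1.34 ± 0.18 on the log2 scale from 30 min (limma adjusted p = 0.0013), and the first 60 min experiment had 6.38, 7.82 and 6.63. A dimmer probe set of Txnip was not called (-0.75, limma adjusted p = 0.40). Txnip was the 1 decrease in the list of growth-arrest genes lowered by serum. Pde4b, a cyclic AMP phosphodiesterase, fell by 1.00 ± 0.10 (limma adjusted p = 0.00030), at the 2-fold limit: the change was -0.91 without the first 60 min array and -0.98 to -0.997 without any 1 of 4 arrays at 30 min. Cebpd, a bZIP factor, fell by 1.20 ± 0.14 (limma adjusted p = 0.00052), from 10.99 to 11.59 at 30 min to 9.88, 10.01 and 10.11, below the 11.02 of untreated cells.

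Chac1, which degrades glutathione and is a target of Atf4, was the 1 gene called of 26 Atf4 and amino acid stress genes, whose median was -0.33. It had 8.26 to 8.93 (median 8.57) at 30 min and 7.24, 7.18 and 7.34 at 60 min, a decrease of -1.32 ± 0.13 (limma adjusted p = 0.00030). In newly transcribed RNA Chac1 changed by -1.42 ± 0.36 (limma adjusted p = 0.0095). Sesn2, an inhibitor of mTORC1 signalling, had -0.84 ± 0.10 (limma adjusted p = 0.00075; 0.074 with set means), Trib3 -0.77 ± 0.20 and Ddit3 -0.76 ± 0.23, all under 2-fold.

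Nr2f2, an orphan nuclear receptor, fell by 1.10 ± 0.13 (limma adjusted p = 0.00061) on 1 of its 5 probe sets. The other 4 were not called: one of nearly the same brightness changed by -0.20 (limma adjusted p = 0.63), and the rest by -0.28 to 0.12. Trim32, a ubiquitin ligase, fell by 1.20 ± 0.15 (limma adjusted p = 0.00077). Trim32 had a positive but not called change of 0.62 ± 0.43 in newly transcribed RNA. Ifi27l2a, an interferon-induced gene, had 8.48 to 10.30 (median 10.10) at 30 min and 7.80, 7.78 and 7.85 at 60 min. Its decrease of -1.85 ± 0.42 had an adjusted p of 0.024 by limma, 0.11 with set means and 0.11 to 0.13 without any 1 of the 60 min arrays. Of 7 interferon genes tested, 0 were called and the median was -0.45; Ifit1 had 5.06 to 9.16 at 30 min and 4.96, 4.72 and 4.59 at 60 min (limma adjusted p = 0.16). Smg1, a kinase of nonsense-mediated decay, fell by 1.07 ± 0.18 (adjusted p = 0.0060 by limma, 0.10 with set means, 0.059 and 0.067 without the first or the second 60 min array), and it changed by 0.13 in newly transcribed RNA. This was 1 of 3 Smg1 probe sets; the others, one of them equally bright, changed by -0.18 and -0.03 (limma adjusted p = 0.30 and 0.97).

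The 170 increases were sorted by their calls against untreated cells. Of these probe sets 66 (51 genes) were called above untreated cells at 60 min, where 1.61% of all probe sets tested were: 13 already at 30 min and 53 at 60 min only. Both calls use the 2F arrays at 60 min, so they are not independent, and the excess over that share is no separate result. The 13 were Tnc, Lif, Ccl2, Slc30a1, Snai1, Id1, Id3, Ereg, Ccl7, Hbegf, Csrnp1, Tbx3 and Noct. Tbx3, a T-box repressor, changed by 1.11 ± 0.27 (limma adjusted p = 0.035), and Noct, an NADP(H) phosphatase with a daily rhythm, by 1.08 ± 0.24 (limma adjusted p = 0.021). Both lost the call with set means (0.12 and 0.10) and without any 1 of the 60 min arrays (0.13 to 0.17 and 0.10 to 0.13). The first 60 min experiment lay above untreated cells for 13 of the 13, with a median of 2.62, and for 39 of the 53, with a median of 0.80; all probe sets tested had a median of -0.09. These differences share the untreated arrays with the calls above them.

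The other 104 increases were not called above untreated cells at 60 min; 4 of them had been below at 30 min and 100 differed from untreated cells by call at neither time. Examples, chosen after their values were seen, were Mbtps1, a protease of the Golgi (2.61 ± 0.66, adjusted p = 0.038 by limma, 0.13 with set means), Grb10, an adaptor of the insulin receptor (2.35 ± 0.58, limma adjusted p = 0.034; 0.12 with set means), and Gja1, the gap junction protein connexin 43 (1.89 ± 0.50, limma adjusted p = 0.050; 0.12 with set means). Their probe sets were not the brightest of these genes. The 100 had a median level of 6.25 in untreated cells, 5.70 at 30 min and 7.08 at 60 min. Against the first, the second and the third set at 30 min, their median change was 0.99, 1.46 and 1.38. In the first 60 min experiment they lay -0.83 from untreated cells at the median, and 13 of the 100 were above them. After 1 h of actinomycin D, 46 of the 94 tested were called higher and 2 lower than before it (2.57% and 3.58% of all probe sets), with a median of 1.00. For the 66 above untreated cells at 60 min the same numbers were 4 higher and 7 lower of 48 tested, with a median of 0.20. After 2 h of actinomycin D the medians were 0.38 for the 100 and -0.36 for the 66, while 9.42% of all probe sets were called lower and 0.538% higher. The actinomycin D values share the untreated arrays with the calls. With set means 36 of the 66 and 31 of the 104 were called.

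**Figure D4:**
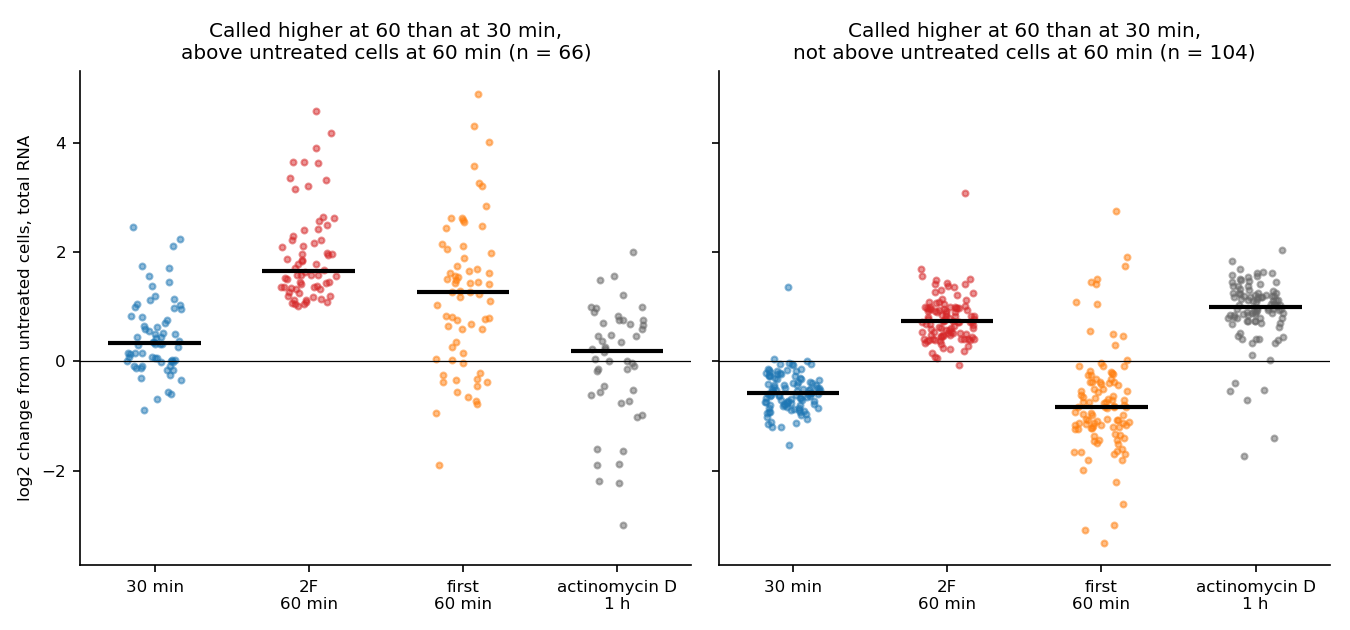
Log2 change from untreated cells in total RNA at 30 min, at 60 min of the 2F experiment, in the first 60 min experiment and after 1 h of actinomycin D, 1 point per probe set called higher at 60 min than at 30 min; bars are medians. The 66 probe sets above untreated cells at 60 min (left) lie mostly above 0 in both 60 min experiments. The medians of the 104 others (right) lie below 0 at 30 min and in the first 60 min experiment and at 1.00 after actinomycin D, with points on both sides of 0.

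Newly transcribed RNA was measured on other arrays of the same times and doses. Of the 47 probe sets called lower in total RNA, all were tested in it, 31 were called lower and 0 higher, and 44 had a negative change; the median was -1.56. In the whole fraction 7.09% of 16304 probe sets were called lower and 3.89% higher. Of the 170 called higher in total RNA 126 were tested, 27 were called higher and 1 lower, and 109 had a positive change, as did 66.9% of all 13909 probe sets tested in both fractions. Called higher were 23 of 62 tested among those above untreated cells at 60 min and 4 of 64 among the others, a difference that was not tested. Across the 173 called probe sets measured in both, changes in total and new RNA had a Pearson correlation of 0.841 and a Spearman correlation of 0.737, and across all 13909 probe sets 0.350 and 0.263. The 173 were chosen by their change in total RNA, with small changes left out, and such a choice raises a correlation. Points are probe sets, not replicates, some share a gene, and the new RNA at 30 min fell into the same 3 sets by replicate number (SD within sets 0.249 to 0.487, between 0.360 and 0.891, 9 of 9 best with their own).

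**Figure D5:**
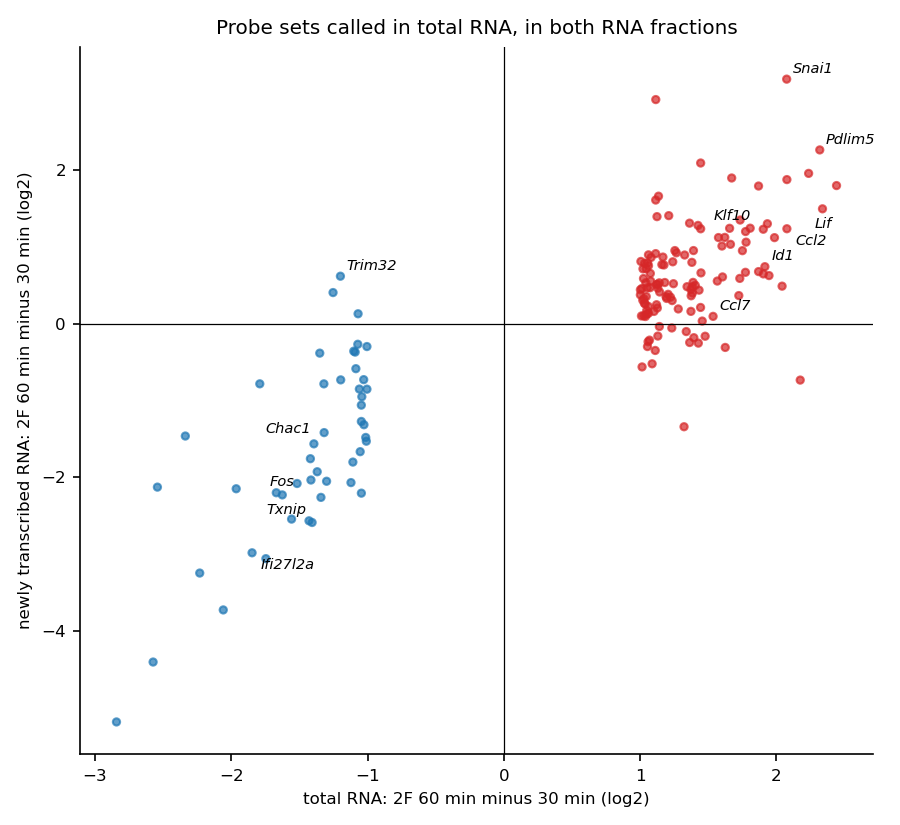
Log2 change from 30 min to 60 min of the 2F experiment in total RNA (x axis) and in newly transcribed RNA (y axis) for the 173 called probe sets tested in both fractions, 126 higher (red) and 47 lower (blue) in total RNA. Of the blue points 44 lie below 0 in newly transcribed RNA, and 109 red points lie above 0; Snai1 is at 3.19 and Fos at -2.04 in newly transcribed RNA.

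On their brightest probe sets, genes of growth and upkeep gave 0 calls in either direction with limma. This held for 42 ribosomal protein genes (median 0.02), 36 of ribosome biogenesis (-0.01), 66 of oxidative phosphorylation (-0.01), 31 of the proteasome (0.04), 27 of glycolysis and the citrate cycle (-0.11), 30 of collagens and matrix (-0.05), 28 of mitosis (-0.08), 25 of DNA replication and the G1/S step (0.00), 29 of splicing (0.16) and 14 snoRNA host genes and nuclear RNAs (0.01). It also held for 21 genes of the unfolded protein response (0.11), 16 of heat shock and chaperones (0.05), 18 p53 targets (-0.10), 19 of sterol synthesis (-0.18), 15 fibroblast markers (-0.02) and 30 SRF and YAP targets with actin genes (-0.05). Of all genes tested, 0.381% were called higher and 0.131% lower on that probe set, so lists of this size would hold few calls or none at that share. Other probe sets of some listed genes were called. They were higher for Pdlim5 (1.23 to 2.32 on 4 probe sets), Tnc, Timp3, Srsf1 and Pdgfra, and lower for Cenpa, Rbm39, Hmgcs1 and Msmo1. With set means the calls of Tnc and of 3 of the 4 Pdlim5 probe sets held. Actb, the gene of beta-actin, had 13.73, 13.58 and 13.66 against 13.76 to 13.99, a change of -0.23 ± 0.08 (limma adjusted p = 0.12). Cirbp, the 1 cold-inducible RNA-binding protein gene tested, had 0.94 ± 0.20 and missed the 2-fold limit. Cald1, the gene of caldesmon, had 2 called probe sets that disagreed: 1433147_at rose by 1.44 ± 0.26 (adjusted p = 0.0077 by limma, 0.084 with set means) and 1424768_at changed by -1.03 ± 0.17 (adjusted p = 0.0049 by limma, 0.058 with set means).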

How the data were processed

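The authors extracted RNA with Trizol and hybridised it to Affymetrix mouse arrays after one-cycle labelling, per the labels' protocols. The deposited values are GCRMA intensities on a linear scale, with GCRMA named in the submitters' processing notes; how they were scaled beyond that is not given in the sources used here. Their log2 was taken. Of 31451 probe sets, 61 control probe sets were left out. Symbols came from the platform annotation: 25031 probe sets had 1 gene symbol, 690 several and 5669 none. Symbols were checked through Entrez identifiers in the RefSeq table (24934 matched, 0 changed). Precision is limited by the number of arrays.

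A linear model with group as the only factor (limma 3.58.1, lmFit then eBayes, under R 4.3.3) was fitted to the 12 arrays, keeping probe sets whose log2 averaged 5 or more over them (an intensity of 32). A gene can pass this filter through 1 group alone. A call needed a change of 2-fold or more and p below 0.05 after Benjamini-Hochberg adjustment across every probe set in the fit. Comparisons with untreated cells came from 1 fit of 3 groups; new RNA, the first 60 min experiment and actinomycin D had fits of their own. The script was tested on simulated data.

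Named genes are the 15 largest called increases (28 met the rule) and all 9 called decreases with 1 symbol, log2 7 or more in the higher group, no overlap, and the gene's brightest probe set; up to 4 members with the largest change per list (31 lists), and Fos, Myc and Actb. Probe sets with no overlap had every array of one group above every array of the other. Members and lists were chosen with earlier results of these data known. The replicate sets at 30 min were found in the data, and fits that allow for them were added after that. Alternatives changed the scaling, filter, floor, arrays and model.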

Additional observations from a re-analysis of the deposited data

Results flagged for a closer look

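In 4 genes the change from 30 min differed between the 2F experiment and the first 60 min experiment, by a test of the difference itself (limma, Benjamini-Hochberg over the 30 called named genes). These 30 were chosen by their change in 2F, and the same 2F arrays enter the test, which favours a larger change in 2F. The difference, 2F minus first, was 1.57 for Id1 (adjusted p = 0.034), 1.71 for Id3 (adjusted p = 0.034) and 1.79 for Net1 (adjusted p = 0.033). It was -1.30 for Smg1 (adjusted p = 0.0061). Id1 rose by 1.91 in 2F and changed by 0.35 in the first experiment, whose arrays read 10.20, 7.53 and 9.34. Id3 had 1.77 and 0.06, Net1 1.75 and -0.04, and Smg1 -1.07 and 0.23, on the 1 of its 3 probe sets that was called. The arrays of the first experiment differed more from each other (SD of log2 differences 0.534 to 1.02) than those of 2F (0.159 to 0.170). The actin 3' to 5' log2 difference of its replicates 1, 2 and 3 was 0.77, 3.08 and 1.29, against 0.68 to 0.74 in 2F. The part of that spread and of these ratios in the differences was not tested. In 60 tests of single arrays that stand far from their group, 0 were found.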

How the results depend on the processing

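All results here come from 3 arrays at 60 min and 9 at 30 min that form 3 sets, and the spread between sets bounds what could be called. None of the 30 called named genes changed sign in any setting run, the set and the replicate block included. All 30 had no overlap between the groups, which fixed their sign in advance for fits on parts of the arrays. Of all 130 named genes, 16 that were not called had another sign against 1 set of 30 min arrays alone, among them Il6 (-0.29 against the third set) and Rpl27a (-0.70 against the second), and Egr2, with a change of 0.04, also had one in other settings. With set means 19 of the 30 called named genes kept their call, 14 did with the 30 min arrays 1 to 3 alone, and 0 did with the set as a random block; under quantile normalization 29 did. The cause of each change below was not tested, apart from the smaller number of arrays or probe sets where that was the setting.

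For 60 min against 30 min (170 higher, 47 lower), the count of higher probe sets was 340 with no filter, 105 with a mean log2 of 6 or more, 65 with the 30 min arrays 1 to 3, 342 with array weights, 425 at 1.5-fold, 605, 833 and 469 against the first, the second and the third set alone, 77 with set means and 0 with the set as a random block. The lower count was 75 with quantile normalization, 24 with values below log2 5 set to 5, and 31, 8, 99, 161, 179, 370, 179, 16 and 0 under the same settings from the filter at 6 on. Leaving out 1 array gave 61 to 193 higher and 21 to 52 lower.

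For 30 min against untreated cells (105 higher, 35 lower) the floor gave 61 and 22, set means 60 and 23, the set block 33 and 0, no filter 81 lower, and leaving out 1 array 64 to 147 and 13 to 52. For 2F 60 min against untreated cells (249 and 93) the set block gave 46 and 3, and for the lower count quantile normalization gave 140, no filter 178 and the floor 52; 1 array left out gave 167 to 287 and 56 to 101. For the first 60 min experiment against 30 min (382 and 742) the floor gave 241 and 252, set means 0 and 0 with limma, the set block 12 and 10, and 1 array left out 95 to 867 and 161 to 1928. New RNA (635 and 1156) had 175 and 414 with the set block and 499 to 689 and 1003 to 1232 with 1 array left out. Actinomycin D had 665 and 1039 (1 h) and 139 and 2349 (2 h) with no filter, 260 and 28 higher at 2 h with quantile normalization and the floor, and with 1 array left out 355 to 496 and 428 to 641 at 1 h and 74 to 127 and 1282 to 1594 at 2 h.

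Replicate numbers shared by the groups did not pair the arrays: deviations of same-numbered arrays at 60 min and 30 min correlated at -0.09, -0.11 and -0.13, and 0 of the 3 numbers matched best with themselves. For 30 min against untreated cells the correlations were 0.21, 0.36 and -0.04, and for the first 60 min experiment against 30 min 0.45, 0.63 and 0.04, each with 2 of 3 numbers matched best with themselves; in no comparison were all 3 over 0.1. With the replicate block, on the 3 shared numbers, limma called 0 higher and 0 lower for 60 min against 30 min, 28 and 1 for 30 min against untreated cells, 500 and 148 for 2F 60 min against untreated cells, 16 and 4 for the first 60 min experiment, and 300 and 552 in new RNA.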
